A study of Mus musculus with 3 samples.

Results

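Neurotrophins and the glial cell line-derived neurotrophic factor (GDNF) family are growth factors that sensory neurons of the dorsal root ganglion (DRG) depend on for survival in development and for their mature properties in the adult. The genes described here encode 8 of their receptors: *Ntrk2*, *Ntrk3*, *Ngfr* and *Sort1* for the neurotrophins, and *Ret*, *Gfra1*, *Gfra2* and *Gfra3* for the GDNF family. They were chosen by name, and all 8 were among the 32227 genes of the count tables.

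To compare the cells of the DRG between ages, the study sequenced nuclear RNA of DRG from the lumbar levels L3 to L5 of C57BL/6 mice. There was 1 adult library (3 months) and there were 2 aged libraries (21 months), and the labels give no treatment or genotype and do not state how many mice went into a library. The series-level design text states a different age for these aged mice, and the age in the sample labels is used here. The labels give all 3 libraries as male, while the study's methods name females for the aged group, and *Xist*, which is transcribed from the inactive X chromosome of females, was at 1414, 844 and 929 counts per 1000000 in the nuclei used (adult library, aged replicate 1 and aged replicate 2, the order used throughout). The Y-linked *Kdm5d*, *Uty* and *Eif2s3y* reached at most 2.73 and *Ddx3y* 20.6, 13.2 and 7.87, so all 3 libraries went against the labelled sex, and they are named by age only. Barcodes with more than 1000 genes were taken as nuclei, which gave 11518, 5130 and 2611 nuclei, from total counts of 167664164, 95647106 and 69045987 unique molecular identifiers (UMIs). Levels are counts scaled to 1000000 UMIs of the same class and library (CPM), and they are compared between classes for one gene at a time, since the counts are not scaled to transcript length.

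Neurotrophin receptors work as a kinase with modulators. TrkB (*Ntrk2*) and TrkC (*Ntrk3*) are receptor tyrosine kinases that bind brain-derived neurotrophic factor and neurotrophin-3. The receptor p75 (*Ngfr*) binds all neurotrophins and has a cytoplasmic domain of its own. Sortilin (*Sort1*) is a sorting receptor that joins p75 in binding proneurotrophins. In the GDNF family the division is different. A GPI-anchored co-receptor (GFRα1 for GDNF, GFRα2 for neurturin, GFRα3 for artemin) binds the ligand, and the shared kinase RET carries the signal into the cell. In the DRG, TrkC is known for proprioceptors, TrkB for fast touch receptors, and RET with its co-receptors for nonpeptidergic nociceptors and some touch receptors. Glia of the nerve also make some of these receptors, among them a TrkB form without the kinase domain, and 3′ counts per gene do not separate the forms.

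Nuclei were clustered without the 8 genes and without the other genes of the pathway, and clusters were named from markers, so each class is called "like" the cell type whose markers it carried. Satellite glial cell (SGC)-like nuclei numbered 3190, 400 and 211, non-myelinating Schwann cell (NMSC)-like nuclei 483, 291 and 154, myelinating Schwann cell (MSC)-like nuclei 624, 505 and 177, and neuron-like nuclei 4523, 2375 and 1296. Fibroblast-like, endothelial-like, lymphocyte-like and myeloid-like nuclei made up the other classes tested, and mural-like nuclei (57, 18 and 3) were too few for a test. The lists of 10 neuron markers, 6 SGC markers, 7 NMSC markers and 7 MSC markers were all detected in their own class in all 3 libraries. The pairs of libraries shared at most 1 barcode. Clusters in which another lineage passed a large enough share of its markers beside the leading one were left out as mixed. They held between 8.40% and 12.5% of the nuclei of a library. Kept clusters could still carry some markers of other lineages. The NMSC-like cluster passed the fibroblast markers *Col1a1*, *Col1a2* and *Col3a1*, and the MSC-like cluster *Col1a1* and *Col1a2*. The lymphocyte-like cluster passed the myeloid markers *Csf1r* and *F13a1* and the endothelial marker *Pecam1*. Free RNA was measured in barcodes of 100 UMIs or fewer, and its estimated share of a class's UMIs was, among the 8 classes tested, lowest in SGC-like nuclei (15.5%, 12.1% and 13.5%) and was 60.3%, 55.6% and 26.4% in endothelial-like nuclei. The share is a median over markers of other classes. Some receptor levels below lie well under the level it gives, so that level is a rough guide and not an exact floor. A set of neuron clusters with little of the nuclear RNA *Malat1* (under 1.5% of UMIs) held 20.7%, 43.0% and 31.1% of neuron-like nuclei.

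Promoters are shown for *Gfra1* and *Ngfr*, the pair of receptors that were higher with age in the same glial class. The windows run from 250 bases before to 50 after the RefSeq start of the gene on GRCm38.p6, and RefSeq windows were matched for 3 of the 8 genes (*Ngfr*, *Ntrk2* and *Gfra1*). Both are written 5′ to 3′ on the strand of the gene, with the E-box letters CANNTG in capitals. *Ngfr* is at chr11:95587649-95587948 and *Gfra1* at chr19:58455349-58455648, both on the minus strand. The RefSeq and GENCODE starts differ for *Gfra1*. Its window lies wholly inside the GENCODE span of the gene (58235604 to 58455909), downstream of the 5′ end there. The *Ngfr* window spans the GENCODE 5′ end of its gene (95587735).
Ngfr: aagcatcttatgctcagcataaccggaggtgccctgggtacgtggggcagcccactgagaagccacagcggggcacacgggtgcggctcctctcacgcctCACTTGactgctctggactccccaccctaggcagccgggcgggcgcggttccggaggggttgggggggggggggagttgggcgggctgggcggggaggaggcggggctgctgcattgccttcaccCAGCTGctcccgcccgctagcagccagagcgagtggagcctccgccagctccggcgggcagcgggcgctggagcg
Gfra1: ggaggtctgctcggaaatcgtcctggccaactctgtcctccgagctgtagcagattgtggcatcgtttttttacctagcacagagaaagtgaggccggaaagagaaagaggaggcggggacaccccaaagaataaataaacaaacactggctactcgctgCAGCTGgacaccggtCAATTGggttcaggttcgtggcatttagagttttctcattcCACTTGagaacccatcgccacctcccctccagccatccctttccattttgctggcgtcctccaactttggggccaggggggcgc
The *Ngfr* window held 2 E-boxes and the *Gfra1* window 3, on either strand, and 72.3% of the 32851 RefSeq promoter windows held at least 1. The GC box GGGCGG occurred 4 times in the *Ngfr* window and 0 times in the *Gfra1* window, against 35.7% of all windows with at least 1, and it did not overlap the E-boxes. The letters ACAAAG, the core that SOX proteins bind, were in neither window and were in 18.7% of all. The GC content was 71.7% for *Ngfr* and 54.0% for *Gfra1*, beside a median of 52.7% over all windows.

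Which cells of the ganglion carry each receptor was examined first, by setting each class beside the average of all others, with library as a block. The receptors differed in which of the 8 classes tested they were highest: *Ntrk2* in SGC-like nuclei, *Gfra1* in MSC-like nuclei, *Ntrk3* in fibroblast-like and neuron-like nuclei, *Sort1* in the glial and endothelial-like classes, and *Ngfr*, *Ret*, *Gfra2* and *Gfra3* in neuron-like nuclei. Of the 64 tests of a receptor in a class, 43 passed the threshold of an adjusted p under 0.05 in edgeR's quasi-likelihood test, 20 higher and 23 lower, against 39.9% of all tests over all genes. Neuron-like nuclei had 6 of 8 receptors higher, where 36.1% of the 14464 genes tested were higher, with 1 lower (31.1%), and NMSC-like nuclei had 6 of 8 higher, where 15.1% were, and none lower (9.86%). Myeloid-like nuclei had 6 of 8 lower (26.7% of all genes) and none higher (21.0%), and lymphocyte-like nuclei 4 of 8 lower (17.7%) and none higher (19.8%). SGC-like nuclei had 3 higher and 5 lower (25.3% and 21.8% of all genes), MSC-like nuclei 2 higher and 5 lower (18.8% and 17.9%), fibroblast-like nuclei 1 higher and 1 lower (19.0% and 14%), and endothelial-like nuclei 2 higher and 1 lower (16.3% and 8.52%).

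**Figure D1:**
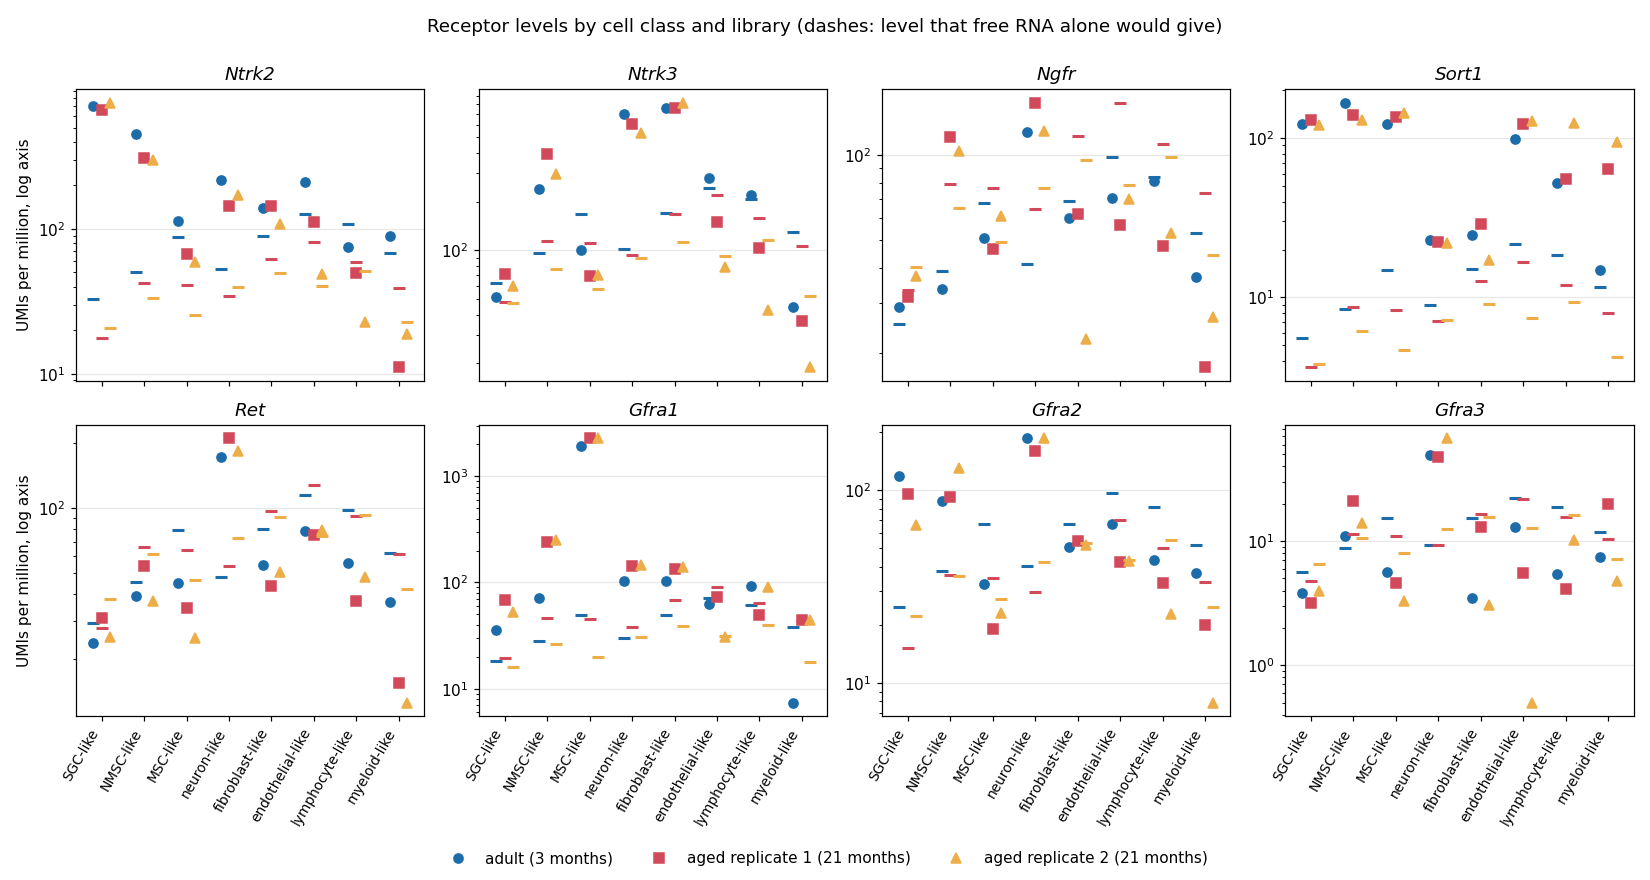
Levels of the 8 receptors (CPM, log axis) in 8 cell classes, with 1 point per library; dashes mark the level that the library's free RNA alone would give at its estimated share of the class, and a value of 0 is drawn at 0.5. *Ntrk2* in SGC-like nuclei (665 to 743) and *Gfra1* in MSC-like nuclei (1926 to 2295) stand far above their dashes, while *Ret* and *Gfra3* outside neuron-like nuclei mostly lie near or under them, with *Gfra3* in aged replicate 1 above them in NMSC-like (20.9 against 11.3) and myeloid-like nuclei (19.9 against 10.5).

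*Ntrk2* (ENSMUSG00000055254, GRCm38 chromosome 13, 58806569 to 59133970, plus strand, GENCODE M21) was highest in SGC-like nuclei, at 706, 665 and 743 CPM. In NMSC-like nuclei it was at 451, 308 and 301, and in neuron-like nuclei at 218, 144 and 170. The ranges of these classes did not overlap, and the order SGC-like, NMSC-like, neuron-like held in every library. Against the average of the other classes the log2 difference was 3.13 ± 0.17 (SE) in SGC-like nuclei (adjusted p = 3.6e-13), 1.73 ± 0.19 in NMSC-like nuclei (1.3e-07) and 0.76 ± 0.19 in neuron-like nuclei (0.0012). Because neurons hold most UMIs, they still contributed 61.8% to 74.6% of the *Ntrk2* UMIs of named nuclei, and SGC-like nuclei 19.0% to 31.1%.

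*Ntrk3* (ENSMUSG00000059146, chromosome 7, 78175959 to 78738012, minus strand) was at 759, 764 and 821 CPM in fibroblast-like nuclei and at 697, 607 and 534 in neuron-like nuclei. These were the top classes in all 3 libraries, and the fibroblast-like level was the higher of the pair in each. The log2 difference from that average was 2.52 ± 0.19 in fibroblast-like nuclei (adjusted p = 2.3e-10), 2.40 ± 0.19 in neuron-like nuclei (1.1e-10) and 1.15 ± 0.22 in NMSC-like nuclei (0.00028). Among the fibroblast-like clusters *Ntrk3* was at 935, 1087 and 1210 in the cluster led by *Ccdc33*, at 760, 479 and 703 in the cluster led by *Mmp2* and at 600, 579 and 668 in the cluster led by *Slc47a1*. The *Ccdc33* cluster was the highest in every library.

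*Ngfr* (ENSMUSG00000000120, chromosome 11, 95568818 to 95587735, minus strand) was at 121, 153 and 121 CPM in neuron-like nuclei, with a log2 difference of 1.64 ± 0.19 (adjusted p = 5.1e-08). In SGC-like nuclei it was at 29.0, 31.4 and 37.4, beside 25.3, 33.2 and 40.1 that free RNA alone would give there. The SGC-like level thus did not stand clear of the estimated free RNA level, and the same held for the MSC-like (50.8, 46.4 and 61.0) and endothelial-like levels (70.7, 56.8 and 70.0), which lay under or near their free RNA levels.

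*Sort1* (ENSMUSG00000068747, chromosome 3, 108284082 to 108361511, plus strand) had the opposite pattern. It was at 123, 130 and 122 CPM in SGC-like nuclei, at 167, 141 and 129 in NMSC-like nuclei and at 122, 136 and 144 in MSC-like nuclei, and the ranges of the 3 glial classes overlapped. In endothelial-like nuclei it was at 98.2, 124 and 128, which overlapped the glial range, beside 21.5, 16.7 and 7.44 that free RNA alone would give. In lymphocyte-like nuclei it was at 52.2, 55.8 and 124. In neuron-like nuclei it was at 23.0, 22.3 and 22.0, below every glial value. The log2 difference was 1.22 ± 0.18 in NMSC-like nuclei, 1.14 ± 0.17 in SGC-like nuclei, 1.00 ± 0.18 in MSC-like nuclei, 0.68 ± 0.21 in endothelial-like nuclei and −1.74 ± 0.20 in neuron-like nuclei (adjusted p = 1.1e-05, 4.5e-06, 7.6e-05, 0.018 and 4.4e-08). *Ngfr*, whose product it partners, thus had its highest level in neuron-like nuclei, where the *Sort1* level was low.

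*Ret* (ENSMUSG00000030110, chromosome 6, 118151745 to 118197718, minus strand) was at 174, 212 and 185 CPM in neuron-like nuclei. In the other 7 classes tested every library lay between 12.6 and 79.1. Nearly all of those values were at or below the level that free RNA alone would give, with 31.1 against 27.9 in the SGC-like nuclei of aged replicate 1 and 79.1 against 74.4 in the endothelial-like nuclei of aged replicate 2 as the exceptions. In these classes *Ret* thus did not stand clear of the estimated free RNA level at this depth. Several values lay well under that estimate, so whether any *Ret* is made there cannot be told from it. The log2 difference in neuron-like nuclei was 2.51 ± 0.10 (adjusted p = 1.9e-15). In endothelial-like nuclei it was 0.73 ± 0.16 (0.0012), beside a free RNA level of 115, 128 and 74.4 CPM for 78.5, 75.7 and 79.1 CPM measured.

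*Gfra1* (ENSMUSG00000025089, chromosome 19, 58235604 to 58455909, minus strand) was at 1926, 2295 and 2284 CPM in MSC-like nuclei. No other class exceeded 249 in any library. The log2 difference of 4.73 ± 0.16 (adjusted p = 9.4e-17) was the largest of the 64 class tests of the 8 receptors. MSC-like nuclei contributed 29.99% to 44.6% of all *Gfra1* UMIs of named nuclei from 2.25% to 4.59% of the UMIs. A fibroblast-like cluster led by *Mmp2* was at 461, 315 and 292, well above the *Ccdc33* cluster (47.8, 45.5 and 43.2) and the *Slc47a1* cluster (23.1, 76.5 and 64.1). The kinase partner of GFRα1 in MSC-like nuclei, *Ret*, was at 45.2, 34.6 and 25.05, beside 79.6, 64.2 and 46.6 expected from free RNA.

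*Gfra2* (ENSMUSG00000022103, chromosome 14, 70890120 to 70979838, plus strand) was at 186, 160 and 186 CPM in neuron-like nuclei, at 118, 94.9 and 65.6 in SGC-like nuclei and at 87.3, 91.6 and 130 in NMSC-like nuclei. The neuron-like values were above all glial values, while SGC-like and NMSC-like values overlapped. In the few mural-like nuclei it was at 173, 211 and 413 from 27, 16 and 5 UMIs, above the neuron-like level in both aged libraries, and this was not tested. The log2 difference was 2.19 ± 0.13 in neuron-like nuclei (adjusted p = 1.5e-12), 1.18 ± 0.15 in SGC-like nuclei (9e-07) and 1.13 ± 0.17 in NMSC-like nuclei (1.5e-05).

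*Gfra3* (ENSMUSG00000024366, chromosome 18, 34689898 to 34720387, minus strand) was at 49.5, 47.9 and 67.8 CPM in neuron-like nuclei, which contributed 95.1% to 98.5% of its UMIs. The log2 difference was 3.15 ± 0.22 (adjusted p = 1.1e-11). Among the other classes tested the highest values were 20.9 in the NMSC-like nuclei of aged replicate 1 and 19.9 in the myeloid-like nuclei of the same library.

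Neuron-like nuclei were then clustered on their own, to ask how the receptors divide among sensory neuron subtypes. Subtypes were named from markers: neurofilament (NF)-like nuclei, most of whose clusters also carried proprioceptor markers, Aδ low-threshold mechanoreceptor (NF Ad-LTMR)-like, C low-threshold mechanoreceptor (C-LTMR)-like, nonpeptidergic (NP1-like and NP3-like), peptidergic (PEP A-like with *Bmpr1b*, *Chrna7*, *Hgf* and *Kit*, and PEP C-like) and *Trpm8*-like nuclei. The peptide gene *Calca*, *Nefh* and *Smr2*, also on the PEP A list, did not pass as markers of the PEP A-like cluster, whose name is that of its list and rests on those 4 genes. Clusters without enough markers are called by a leading gene, *Htr3a*, *Mrgpra3* or *Ntng1*. Over the 11 subtypes, 67 of 88 tests of a receptor against the mean of the other subtypes passed the threshold, 31 higher and 36 lower, against 39.3% of all tests over 15603 genes. Per subtype the counts higher and lower were 5 and 2 in NF-like nuclei (28.5% and 18.7% of all genes), 4 and 3 in NF Ad-LTMR-like nuclei (16.2% and 10.2%), 4 and 2 in C-LTMR-like nuclei (19.7% and 15.8%) and 4 and 3 in *Trpm8*-like nuclei (14.2% and 10.7%). They were 3 and 5 in NP1-like nuclei (20.2% and 16.5%), 1 and 5 in NP3-like nuclei (13.9% and 14%), 2 and 4 in PEP A-like nuclei (26.4% and 20.9%) and 2 and 3 in PEP C-like nuclei (18.9% and 14.1%). In the *Htr3a* cluster they were 1 and 2 (33.4% and 31.7%), in the *Mrgpra3* cluster 2 and 4 (18.1% and 14.9%) and in the *Ntng1* cluster 3 and 3 (29.9% and 25.4%). Some of these calls turned direction under other settings, as listed in the last section. Among the calls higher in NF-like nuclei, *Ngfr* and *Ntrk2* did so without clusters of low *Malat1*, and marker gating turned 5 calls of other subtypes.

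**Figure D2:**
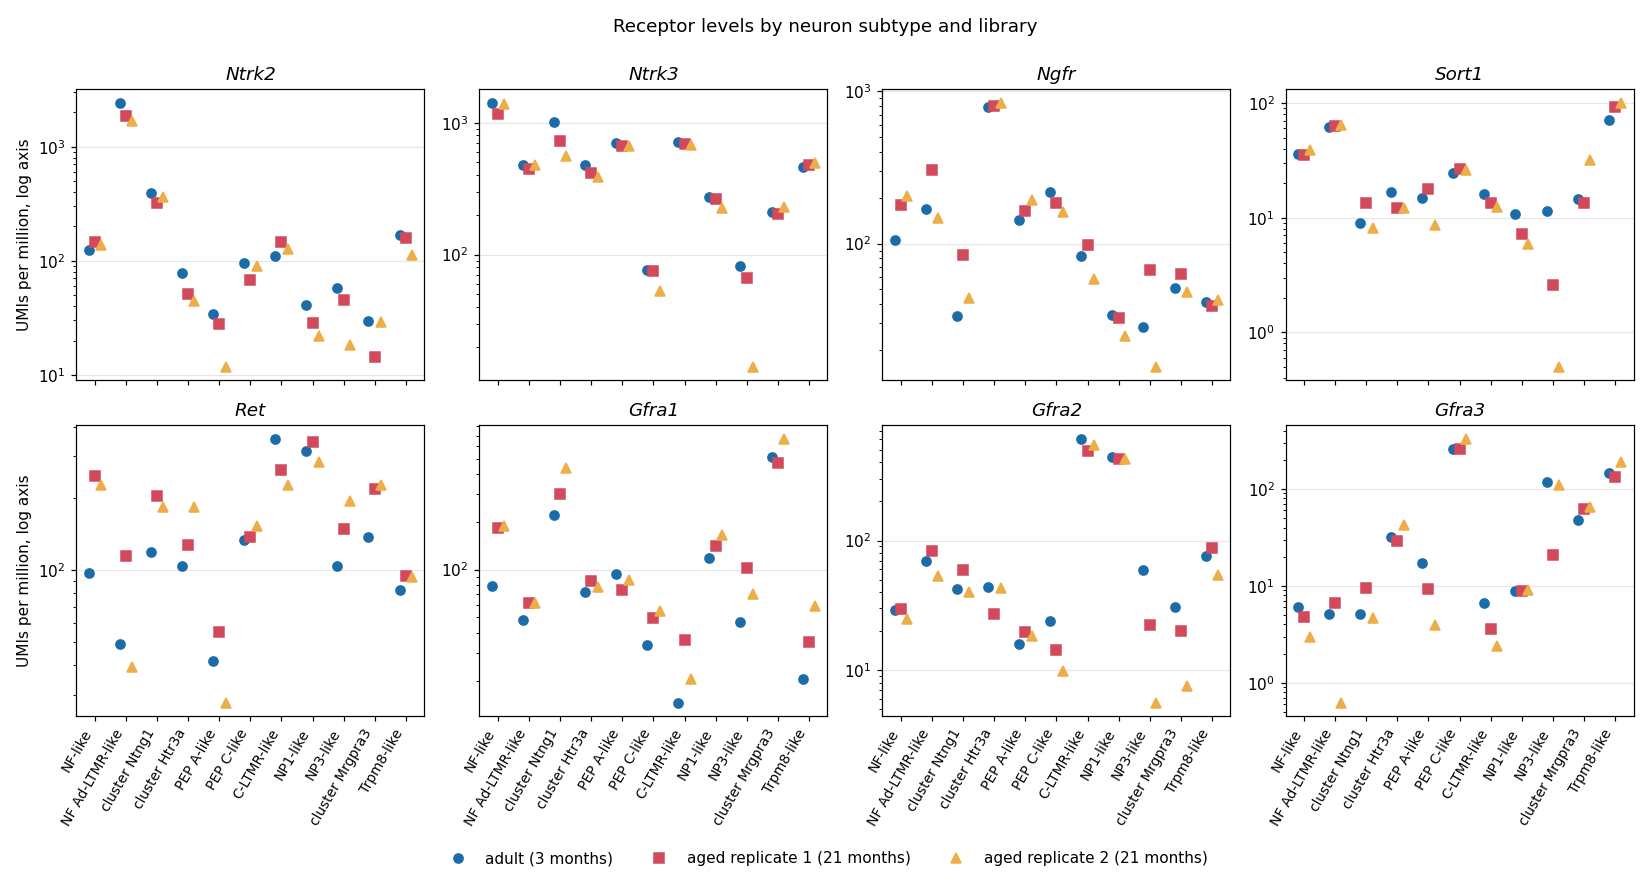
Levels of the 8 receptors (CPM, log axis) in 11 neuron subtypes, with 1 point per library; a value of 0 is drawn at 0.5. *Ntrk2* peaks in NF Ad-LTMR-like nuclei (1672 to 2430), *Ngfr* in the *Htr3a* cluster (793 to 841), *Gfra2* in C-LTMR-like and NP1-like nuclei (423 to 610), and *Gfra3* in PEP C-like nuclei (258 to 331).

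*Ntrk2* was at 2430, 1846 and 1672 CPM in NF Ad-LTMR-like nuclei. The next subtype, the *Ntng1* cluster, was at 390, 322 and 359, while PEP A-like nuclei (33.9, 27.8 and 11.8) and the *Mrgpra3* cluster (29.9, 14.3 and 29.0) were among the lowest, with ranges that overlapped. No value of another subtype came near the NF Ad-LTMR-like range, and the log2 differences were 4.81 ± 0.12 there (adjusted p = 8e-24) and 2.21 ± 0.14 in the *Ntng1* cluster (2.7e-14). A cluster led by *Baiap3* had 38, 1 and 0 nuclei, so it was not tested; its *Ntrk2* level in the adult library was 682.

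*Ntrk3* was at 1419, 1168 and 1383 CPM in NF-like nuclei, with a log2 difference of 2.11 ± 0.12 (adjusted p = 3.3e-15). It was lowest in PEP C-like nuclei (77.0, 75.1 and 53.2) and NP3-like nuclei (82.5, 66.6 and 14.1), whose ranges overlapped, with log2 differences of −2.66 ± 0.19 and −3.04 ± 0.22 (5.2e-13 and 8e-13). PEP A-like nuclei were above all PEP C-like values, at 707, 662 and 669, with a log2 difference of 1.16 ± 0.13 (1.9e-08). The highest level of all lay in a cluster led by *Il1rapl2*, at 3363, 3000 and 3451, which held 132, 47 and 16 nuclei and was too small in aged replicate 2 to be tested.

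*Ngfr* was at 793, 795 and 841 CPM in the *Htr3a* cluster, which is one of the clusters of low *Malat1*, with a log2 difference of 3.25 ± 0.14 (adjusted p = 9.3e-18). Levels were low in NP1-like nuclei (34.0, 32.5 and 24.9), at −1.80 ± 0.21 (1.5e-08). The *Htr3a* values were close to each other across the libraries and above all other subtypes, of which the highest single value was 304 in the NF Ad-LTMR-like nuclei of aged replicate 1. Of those subtypes, NF-like, NF Ad-LTMR-like, C-LTMR-like and NP1-like nuclei mix both *Malat1* states, and the rest held no nuclei of low *Malat1*. The low-*Malat1* NF Ad-LTMR-like nuclei (35, 44 and 12 nuclei) were at 485, 636 and 683, nearer to the *Htr3a* cluster. Over all neuron-like nuclei *Ngfr* was at 401, 427 and 423 in clusters of low *Malat1* and at 86.1, 88.5 and 87.1 in the others, and *Ret* was likewise at 335, 378 and 424 against 154, 173 and 157.

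*Sort1*, low in neurons as a whole, was at 70.9, 91.8 and 101 CPM in *Trpm8*-like nuclei and at 61.2, 62.6 and 64.3 in NF Ad-LTMR-like nuclei. The log2 differences were 2.34 ± 0.17 (adjusted p = 2.3e-12) and 1.91 ± 0.18 (6.4e-10), and the ranges of this pair did not overlap. NP3-like nuclei had 12, 2 and 0 *Sort1* UMIs, with a log2 difference of −2.10 ± 0.41 (0.00017).

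*Ret* was at 317, 345 and 284 CPM in NP1-like nuclei and at 357, 263 and 227 in C-LTMR-like nuclei, and these ranges overlapped. The log2 differences were 1.37 ± 0.17 (adjusted p = 5.1e-08) and 1.22 ± 0.17 (8.8e-07). PEP A-like nuclei were at 41.5, 54.7 and 27.7 (−1.80 ± 0.23, 1.9e-07). In C-LTMR-like nuclei the *Ret* level of clusters of low *Malat1* was 836, 665 and 640, against 278, 204 and 195 in the rest.

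The co-receptors of *Ret* differed in the subtypes where they were highest, but they overlapped. NP1-like nuclei contributed 23.1% to 29.8% of the *Gfra1* UMIs of named subtypes and 46.6% to 64.3% of the *Gfra2* UMIs. The small *Il1rapl2* cluster contributed 7.43% to 12.5% of the *Gfra1* UMIs. It was not tested, and its *Gfra1* level lay between those of the *Mrgpra3* and *Ntng1* clusters in every library. *Gfra1* was at 511, 471 and 670 CPM in the *Mrgpra3* cluster and at 222, 302 and 438 in the *Ntng1* cluster, with log2 differences of 2.86 ± 0.14 (adjusted p = 2.1e-16) and 2.07 ± 0.14 (1.8e-13). In C-LTMR-like nuclei it was at 14.5, 35.8 and 20.4 (−2.19 ± 0.22, 8e-10).

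*Gfra2* was at 610, 491 and 548 in C-LTMR-like nuclei and at 436, 423 and 425 in NP1-like nuclei, with log2 differences of 3.76 ± 0.14 (adjusted p = 4.7e-20) and 3.38 ± 0.14 (1.1e-18). Every other subtype was at or below 87.4 in every library. The C-LTMR-like values were all above the NP1-like values.

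*Gfra3* was at 260, 258 and 331 in PEP C-like nuclei and at 148, 134 and 191 in *Trpm8*-like nuclei, with log2 differences of 4.03 ± 0.18 (adjusted p = 1.7e-17) and 3.09 ± 0.22 (6.7e-13). In NP3-like nuclei it was at 117, 20.9 and 110 (2.03 ± 0.29, 1.3e-06), where aged replicate 1 stood well below the other libraries. PEP C-like nuclei contributed 68.5% to 75.9% of the *Gfra3* UMIs of named subtypes.

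The 2 genes whose pattern was most like each receptor were found by Pearson's r of log2(CPM + 1) over 18 points, the 7 other classes and the 11 subtypes, averaged over libraries, among 11382 genes of at least 10 CPM. The points share their libraries, so r is given as a description. *Gfra3* was most like *Trpv1*, the heat-activated channel of nociceptors (r = 0.94), and *Tmtc4* (0.89). *Ngfr* was most like *Fbxo2* (0.92) and *Stbd1* (0.91), *Ret* like *Pacsin1* and *Phf24* (0.89 each), *Sort1* like *Itga2* (0.87) and *Scarb1* (0.85), and *Ntrk2* like *Nlgn1* (0.85) and *Col19a1* (0.78). *Ntrk3* was most like *Ptk7* and *Ttc19* (0.85 each), *Gfra1* like *Osbpl5* (0.77) and *Dusp15* (0.74), and *Gfra2* like *Cdh11* (0.78) and *Cdh10* (0.76). Among the 8 receptors themselves, the largest r in size was −0.68, between *Sort1* and *Ret*.

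The difference with age was tested within each class, aged against adult. With 1 adult library the spread among adult libraries is not known, the test borrows it from the aged pair, so age and whatever else set the adult library off from the aged pair cannot be told apart. An exact permutation of the library labels could not go below p = 0.333 here. Depth per nucleus was one such difference in glia. Among SGC-like nuclei, 608 of 3190, 348 of 400 and 179 of 211 had more than 2000 genes. The counts were 77 of 483, 164 of 291 and 94 of 154 for NMSC-like nuclei, and 144 of 624, 235 of 505 and 99 of 177 for MSC-like nuclei. Of 63 tests, 11 passed, 3 higher and 8 lower in aged libraries, against 8.4% of all tests over all genes.

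**Figure D3:**
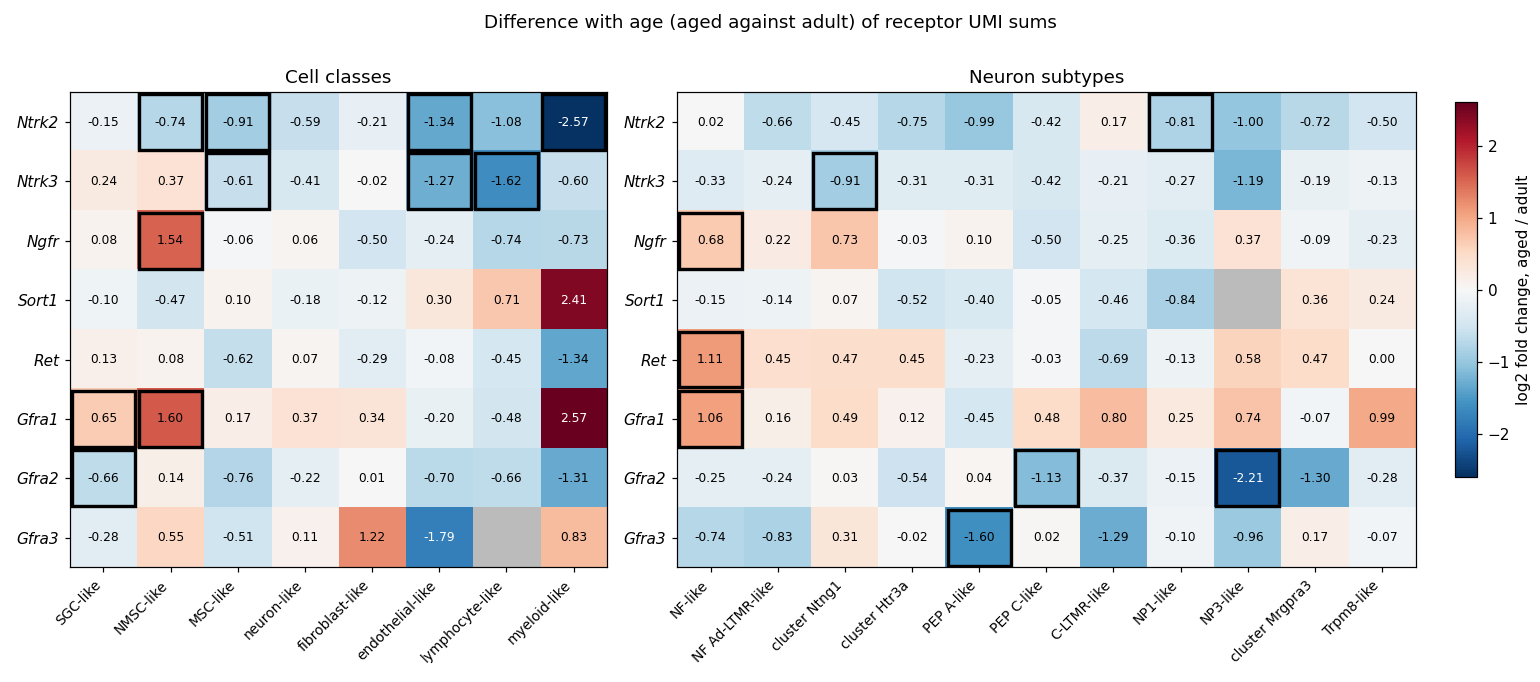
Log2 fold change with age (aged against adult, from edgeR) of the 8 receptors in 8 cell classes (left) and 11 neuron subtypes (right); a black frame marks an adjusted p under 0.05 and grey marks a test that was not made because the gene had too few UMIs. *Gfra1* and *Ngfr* are higher in NMSC-like (1.60 and 1.54) and NF-like nuclei (1.06 and 0.68), and *Ntrk2* is called lower in 4 of the 8 classes.

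In NMSC-like nuclei *Gfra1* and *Ngfr* rose and *Ntrk2* fell, 2 of 8 receptors higher where 3.8% of 12538 genes were, and 1 lower where 4.28% were. *Gfra1* was at 71.5, 240 and 249 CPM, a log2 fold change of 1.60 ± 0.25 (adjusted p = 3e-08, higher in 2 of 2 aged libraries). *Ngfr* was at 33.7, 116 and 104, a log2 fold change of 1.54 ± 0.31 (3.4e-05), and *Ntrk2* was at 451, 308 and 301, a log2 fold change of −0.74 ± 0.20 (0.0038). For each of these genes the aged libraries lay on one side of the adult library and close to each other.

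Other values moved with the NMSC-like libraries. The 9 fibroblast markers summed to 469, 1289 and 1147 CPM in NMSC-like nuclei, the 7 MSC markers to 1712, 2205 and 1640, the 10 neuron markers to 1676, 1552 and 1184, and the 6 SGC markers to 1179, 948 and 899, with none of these markers at 0. Free RNA alone would give 28.2, 46.5 and 26.1 for *Gfra1* and 38.8, 79.1 and 64.8 for *Ngfr*, so that *Ngfr* in the adult library was not above free RNA. With free RNA subtracted the calls of *Gfra1* and *Ntrk2* held, with log2 fold changes of 2.06 (adjusted p = 0.0012) and −0.79 (0.02). *Ngfr* was called at 0.0021, but its adult level was under its free RNA level. The subtraction therefore set the adult value to 0, so this call cannot be counted as support and no fold is given. With every nucleus thinned to 1000 UMIs the log2 fold change was 1.66 (2.7e-05) for *Gfra1* and 2.27 (5.4e-06) for *Ngfr*. In nuclei gated by markers alone (89, 119 and 48 nuclei) it was 0.66 for *Gfra1* (0.77) and 0.48 for *Ngfr* (0.85), and neither call held there. DESeq2 gave an adjusted p of 0.00043 for *Gfra1*, 0.052 for *Ngfr* and 0.17 for *Ntrk2*. *Gfra1* was highest in MSC-like nuclei, where the 7 MSC markers summed to 42003, 17856 and 16188 CPM. The part of RNA from MSC, fibroblasts or other cells in these changes was not tested.

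Whether the change in NMSC-like nuclei differed from that of the other classes was tested as an interaction. *Ngfr* missed the threshold, with a log2 difference of 1.82 ± 0.40 between its age effect in NMSC-like nuclei and the mean over the other classes (adjusted p = 0.0504, unadjusted p = 0.000128), and none of the other receptors passed in any class. At an unadjusted p under 0.05 there were 15 of 64 such tests, and DESeq2 called 0. Of all 129696 such tests over all genes, 0.367% passed at an adjusted p under 0.05. The share of all genes at the unadjusted threshold was not counted, so the 15 of 64 have no background.

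**Figure D4:**
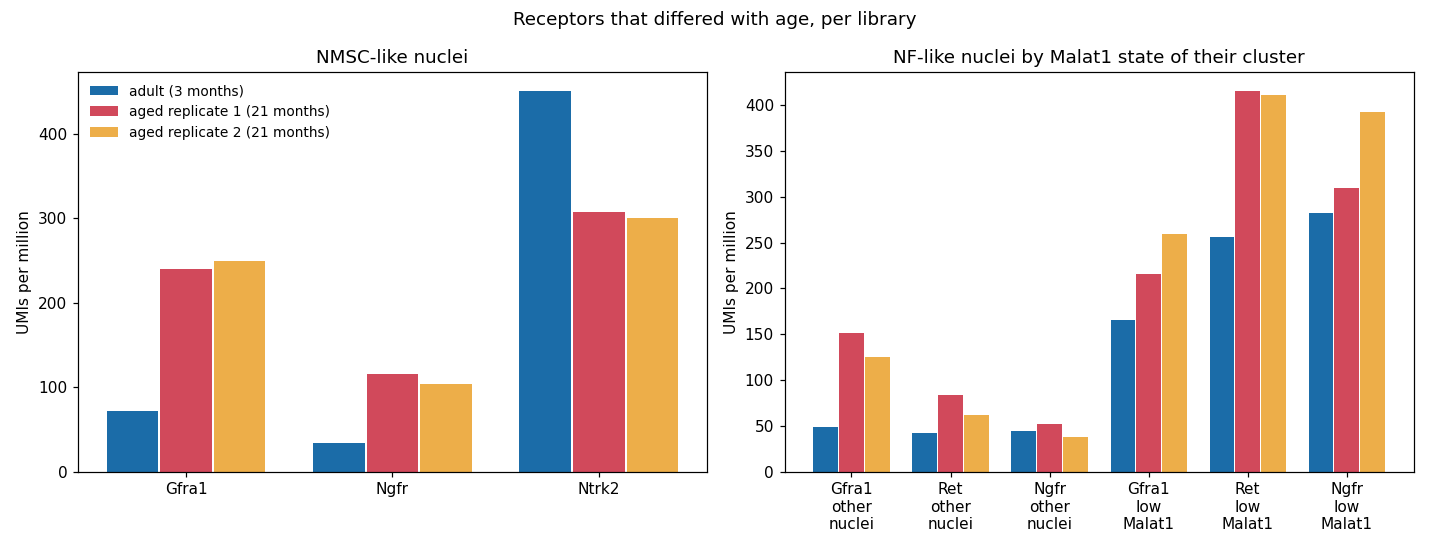
Left, levels of *Gfra1*, *Ngfr* and *Ntrk2* in NMSC-like nuclei (CPM), with 1 bar per library. Right, levels of *Gfra1*, *Ret* and *Ngfr* in NF-like nuclei, separately for clusters of low *Malat1* and the other clusters; outside the low-*Malat1* clusters *Ngfr* stays between 37.8 and 52.1, while *Gfra1* is at 48.7, 151 and 125.

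In SGC-like nuclei *Gfra1* rose and *Gfra2* fell, 1 of 8 receptors in each direction, where 6.29% of 14059 genes were higher and 8.93% lower. *Gfra1* was at 35.5, 68.2 and 52.6 CPM (log2 fold change 0.65 ± 0.18, adjusted p = 0.0031), beside 18.4, 19.5 and 16.1 from free RNA alone. *Gfra2* was at 118, 94.9 and 65.6 (−0.66 ± 0.14, 9.9e-05), and the aged libraries differed from each other by more than aged replicate 1 differed from the adult library. Without aged replicate 2 the *Gfra2* value was −0.43. Once free RNA was subtracted *Gfra1* was called (1.09, 0.048) and *Gfra2* was not (−0.78, 0.16). Neither call held in DESeq2 (adjusted p = 0.69 and 0.34), and *Gfra2* was not called in nuclei of more than 2000 genes (−0.29, 0.27). *Ntrk2*, highest in this class, was at 706, 665 and 743, with a log2 fold change of −0.15. The 7 NMSC markers summed to 3056, 4183 and 3927 CPM in SGC-like nuclei and the 7 MSC markers to 727, 591 and 569. The 10 neuron markers summed to 1191, 1288 and 1147 there and the 9 fibroblast markers to 214, 218 and 212. The part of other cells' RNA in these changes was not tested.

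In MSC-like nuclei *Ntrk2* and *Ntrk3* were called lower (2 of 8, where 7.75% of 13424 genes were lower and 5.39% higher). *Ntrk2* was at 114, 66.6 and 58.8 CPM (−0.91 ± 0.20, adjusted p = 8.3e-05) and *Ntrk3* at 101, 69.6 and 70.8 (−0.61 ± 0.20, 0.022). Free RNA alone would give 87.7, 40.9 and 25.3 for *Ntrk2* and 168, 111 and 58.0 for *Ntrk3*, and the estimated free RNA share of MSC-like UMIs was itself 41.6%, 27.9% and 16.5%. With free RNA subtracted *Ntrk2* changed by −0.35 (0.63), and *Ntrk3* had too few UMIs left for a test. The 7 MSC markers themselves summed to 42003, 17856 and 16188 CPM in this class. The 10 neuron markers summed to 2119, 1344 and 1293 there, and the 6 SGC markers to 583, 358 and 334. For the 9 fibroblast markers the sums were 1091, 1064 and 990, and for the 7 NMSC markers 1340, 1967 and 1995. The part of other cells' RNA in these calls was not tested. *Gfra1*, highest in this class, had a log2 fold change of 0.17 with a 95% interval of −0.01 to 0.34.

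The remaining calls among the non-neuronal classes were of *Ntrk2* and *Ntrk3*, most of them near or under the level of free RNA, and are given as values. *Ntrk2* in endothelial-like nuclei was above that level in all 3 libraries. In endothelial-like nuclei *Ntrk2* was at 209, 111 and 48.7 (free RNA 127, 81.5 and 40.3) and *Ntrk3* at 280, 150 and 79.1 (free RNA 244, 221 and 92.6), with adjusted p of 0.0077 and 0.0095 (2 of 8 lower, where 1.83% of all genes were lower and 0.609% higher). The log2 fold change of *Ntrk2* there was −1.34, and −2.12 without aged replicate 1. In lymphocyte-like nuclei *Ntrk3* was at 221, 103 and 43.1 (free RNA 208, 159 and 117; adjusted p = 0.005; 1 of 7 lower, where 1.7% were and 0.448% were higher). In myeloid-like nuclei *Ntrk2* was at 88.8, 11.1 and 18.9 (free RNA 68.3, 39.1 and 22.8; 0.037; 1 of 8 lower, where 2.69% were and 3.33% were higher), from 12, 10 and 12 UMIs. With free RNA subtracted, *Ntrk2* and *Ntrk3* in endothelial-like nuclei were not called (adjusted p = 0.54 and 0.34), and *Ntrk3* in lymphocyte-like and *Ntrk2* in myeloid-like nuclei had too few UMIs left for a test.

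In fibroblast-like and neuron-like nuclei as a whole none of the 8 receptors passed by edgeR's test (2.96% of all genes were higher and 3.91% lower in fibroblast-like nuclei, and 1.85% and 7.47% in neuron-like nuclei), and at an unadjusted p under 0.05 there were 0 in fibroblast-like and 1 (*Ntrk2*) in neuron-like nuclei. DESeq2 also called none of the 8 receptors. The shares of all genes given here are those at an adjusted p under 0.05. In neuron-like nuclei the log2 fold change was −0.59 for *Ntrk2* (95% interval −1.01 to −0.17, adjusted p = 0.059), 0.37 for *Gfra1* (−0.06 to 0.81) and 0.07 for *Ret* (−0.36 to 0.50).

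Within neuron subtypes, 8 of 87 tests passed, 3 higher and 5 lower with age, against 5.5% of all tests over all genes. All 3 rises were in NF-like nuclei, where 9.97% of genes were higher and 9.19% lower. *Ret* was at 97.7, 248 and 227 CPM (log2 fold change 1.11 ± 0.16, adjusted p = 2.1e-06), *Gfra1* at 79.0, 183 and 188 (1.06 ± 0.16, 6.3e-06) and *Ngfr* at 106, 179 and 206 (0.68 ± 0.16, 0.0021). For all 3 genes both aged libraries were above the adult library.

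The share of NF-like nuclei in the cluster of low *Malat1* was 38.7%, 71.2% and 70.7%, and these genes had higher levels in that cluster. Without it, *Gfra1* was at 48.7, 151 and 125 and still called (1.31, adjusted p = 0.0029), *Ret* was at 42.3, 83.6 and 61.7 and not called (0.61, 0.23), and *Ngfr* was at 44.8, 52.1 and 37.8 with the direction turned (−0.21, 0.78). Within the low-*Malat1* cluster *Ret* was at 256, 416 and 411, *Gfra1* at 166, 216 and 259 and *Ngfr* at 282, 310 and 393, so that both aged libraries were above the adult library there for all 3 genes. In nuclei gated by markers alone none of the 3 was called (0.54, 0.23 and 0.10).

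The lower calls were spread over subtypes. Most of them were at levels that free RNA alone would give at its share of neuron-like nuclei as a whole, which is 53.1, 34.6 and 39.4 CPM for *Ntrk2*, 40.1, 29.6 and 42.5 for *Gfra2* and 9.26, 9.25 and 12.5 for *Gfra3*, and it was not estimated per subtype. *Ntrk2* in NP1-like nuclei was at 40.9, 28.5 and 21.9 CPM (−0.81 ± 0.23, adjusted p = 0.007; 1 of 8 lower, where 6.87% of genes were and 2.46% were higher), and without the low-*Malat1* cluster it was at 39.7, 20.9 and 16.9 (−1.21, 2.1e-08). In NP1-like nuclei of low *Malat1* the order was the opposite, at 53.7, 69.8 and 76.0 from 62, 103 and 49 UMIs, with both aged libraries above the adult library. *Gfra2* in PEP C-like nuclei, where it is low, was at 23.9, 14.3 and 9.91 (−1.13 ± 0.25, 0.0047; 1 of 8, where 5.8% were and 1.69% were higher), and in NP3-like nuclei it was at 58.8, 22.2 and 5.64 from 62, 17 and 4 UMIs (−2.21 ± 0.56, 0.0095; 1 of 7, where 1.1% were and 0.078% were higher), with −3.44 when aged replicate 1 was left out. The *Ntrk2* values in NP1-like and the *Gfra2* values in PEP C-like nuclei lay under the free RNA level in all 3 libraries, and the NP3-like *Gfra2* values in both aged libraries.

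*Ntrk3* in the *Ntng1* cluster was at 1017, 725 and 557 (−0.91 ± 0.17, adjusted p = 0.0016; 1 of 8, where 2.06% were and 0.148% were higher), and DESeq2 called it too (0.014). *Gfra3* in PEP A-like nuclei was at 17.4, 9.33 and 3.92 (−1.60 ± 0.38, 0.034; 1 of 8, where 3.78% were and 0.56% were higher), at or under the free RNA level in both aged libraries, and the direction turned in nuclei gated by markers alone (1.37, 0.053). DESeq2 called neither *Ntrk2* in NP1-like nuclei (adjusted p = 0.26) nor *Gfra2* in PEP C-like (0.44) or *Gfra3* in PEP A-like nuclei (0.62), nor *Gfra2* in NP3-like nuclei. Thinned to 1000 UMIs, *Ntrk2* in NP1-like nuclei turned to 0.22 (0.95) and *Ntrk3* in the *Ntng1* cluster was not called (−0.34).

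In the other 5 subtypes edgeR and DESeq2 called 0 receptors. At an adjusted p under 0.05 in edgeR, 0.533% of genes were higher and 2.17% lower in C-LTMR-like nuclei and 0.0486% and 0.785% in *Trpm8*-like nuclei. These shares were 0.568% and 2.68% in the *Htr3a* cluster, 0.633% and 2.48% in the *Mrgpra3* cluster and 0.00825% and 0.503% in NF Ad-LTMR-like nuclei. At an unadjusted p under 0.05 there were 3 receptors in C-LTMR-like nuclei, 2 in *Trpm8*-like nuclei, 2 in the *Htr3a* cluster, 2 in the *Mrgpra3* cluster and 0 in NF Ad-LTMR-like nuclei. The share of all genes at the unadjusted threshold was not counted, so these counts have no background. In the subtypes where they were highest, *Gfra2* (C-LTMR-like), *Gfra3* (PEP C-like) and *Ngfr* (*Htr3a* cluster) did not pass by age, with log2 fold changes of −0.37 (95% interval −0.89 to 0.15), 0.02 and −0.03. *Ntrk2* in NF Ad-LTMR-like nuclei (2430, 1846 and 1672) had a log2 fold change of −0.66 that did not pass.

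The other genes of the pathway were taken from lists of 9 ligands, 11 further receptors and 16 adaptors. By cell class, 6 of 16 ligand tests, 50 of 72 receptor tests and 70 of 128 adaptor tests passed (3, 21 and 35 higher), beside the 39.9% of all genes. The largest difference among the adaptors was that of *Shc4*, an adaptor of Trk receptors, in MSC-like nuclei (727, 971 and 1112 CPM; log2 difference 4.95 ± 0.17, adjusted p = 7.1e-17) and among the further receptors that of *Sorcs3*, a receptor of the sortilin family, in the *Ntng1* cluster (761, 623 and 959; 3.51 ± 0.13, 1.4e-19). *Shc4* and *Gfra1* thus shared their top class. By neuron subtype 12 of 33, 70 of 121 and 90 of 176 tests passed (9, 36 and 48 higher), beside the 39.3% of all genes.

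With age, 4 of 16 ligand tests (3 higher), 7 of 69 receptor tests (none higher) and 11 of 110 adaptor tests (7 higher) passed over the classes, beside the 8.4% of all genes. *Gdnf*, the ligand of GFRα1, had 0 UMIs in the adult NMSC-like nuclei and 13 and 14 UMIs in the aged ones (8.76 and 17.9 CPM), which is at least 6.46-fold higher over the aged pair with a floor of 3 UMIs for the adult library (adjusted p = 0.0037), at least 4.25-fold with aged replicate 1 alone and at least 8.68-fold with aged replicate 2 alone. *Gdnf* was not called once free RNA was subtracted (adjusted p = 0.083), with a fitted log2 value that stayed as large (6.90 before and 6.92 after; such a value depends on the prior count and is no bound). With 0 UMIs in the adult library, *Gdnf* entered the test only through the aged libraries, where it was high, so its adjusted p is no support of its own. Both aged libraries were also above the adult library for *Gfra1* in NMSC-like nuclei, a call that did not hold under marker gating. A link between these values was not tested.

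*Ncam1*, a cell adhesion molecule that can also bind GDNF with GFRα1, was called lower in 5 classes, the 3 glial ones, endothelial-like (−1.29, adjusted p = 0.0056) and fibroblast-like nuclei (−0.68, 0.03). It was at 311, 128 and 126 CPM in MSC-like nuclei (−1.37 ± 0.15, adjusted p = 6.9e-18), at 2189, 1441 and 1576 in NMSC-like nuclei (−0.71 ± 0.14, 4.5e-05) and at 2517, 2178 and 2303 in SGC-like nuclei (−0.31 ± 0.09, 0.0046). In each of these classes both aged libraries were below the adult library. After subtraction of free RNA the calls in MSC-like (0.038) and NMSC-like nuclei (0.0012) held, and those in SGC-like (−0.39, 0.052), endothelial-like (−2.23, 0.65) and fibroblast-like nuclei (−0.23, 0.96) did not, although only the fibroblast-like value was smaller in size than before.

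Among the adaptors, *Dok6*, which binds RET, rose in MSC-like nuclei (95.5, 232 and 232; 1.20 ± 0.17, adjusted p = 1.2e-10) and NMSC-like nuclei (166, 365 and 252; 0.74 ± 0.22, 0.015) and fell in SGC-like nuclei (203, 176 and 129; −0.53 ± 0.13, 0.00041). The difference between these age effects and the mean of the other classes was tested and did not pass for *Dok6*. *Shc4* rose in MSC-like (0.43 ± 0.11, 0.00094) and SGC-like nuclei (0.41 ± 0.13, 0.011), *Plcg1* rose in SGC-like nuclei (0.92 ± 0.22, 0.00076), and in NMSC-like nuclei *Gab1* rose (0.57 ± 0.19, 0.033) and *Grb10* fell (−0.82 ± 0.23, 0.0094). *Dok6* in MSC-like (0.013) and *Plcg1* in SGC-like nuclei (0.042) were still called after free RNA was subtracted. *Dok6* in NMSC-like (0.82, adjusted p = 0.13) and SGC-like nuclei (−0.62, 0.097), *Shc4* in SGC-like nuclei (0.36, 0.2), and *Gab1* (0.58, 0.053) and *Grb10* (−0.85, 0.06) in NMSC-like nuclei were not called, at log2 fold changes close to those before. The value of *Shc4* in MSC-like nuclei went to −0.0065 (0.99).

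In neuron-like nuclei the neurotrophin genes *Ntf3* and *Ntf5* were called in opposite directions at very low levels. *Ntf3* was at 3.57, 0.79 and 1.66 CPM (240, 32 and 50 UMIs; −1.70 ± 0.34, adjusted p = 3.2e-05) and *Ntf5* at 0.10, 0.96 and 0.70 (7, 39 and 21 UMIs; 2.85 ± 0.64, 0.00027). With 7 UMIs in the adult library, *Ntf5* passed the expression filter only through the aged libraries, where it was high. Its adjusted p is therefore no support of its own. *Sorcs1*, of the sortilin family, was at 172, 127 and 108 (−0.67 ± 0.21, 0.023). With free RNA subtracted none of the 3 was called (*Ntf3* −1.83, adjusted p = 0.66; *Ntf5* 4.13, 0.54; *Sorcs1* −0.63, 0.59), with values about as large as before or larger, and in neuron-like nuclei no gene was. Over all classes, 6 of the 22 age calls of the pathway lists held with free RNA subtracted. The 6 include *Sorcs1* in fibroblast-like nuclei, whose log2 fold change went from −1.43 to −9.03. A value of that size depends on the prior count, so this call cannot be counted as support.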

How the data were processed

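Deposited values were raw UMI counts of genes in barcodes. The authors obtained them with Pipseeker by alignment and transcript counting; the labels name the mm10 build, and use of strand is not given in the sources used here. Nuclei (more than 1000 genes) were passed through SCTransform, joined across ages by RPCA (30 components) and clustered at resolution 0.8 (Seurat 5.3.0, R 4.3.3), without the receptor and pathway genes. A name needed 3 markers at a log2 fold above 1 over the other clusters and in at least 10% of nuclei. No doublet caller was run; mixed clusters were left out.

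Counts were summed per library and class (at least 20 nuclei in each library) and tested with edgeR 4.0.16 (TMM, filterByExpr, quasi-likelihood, Benjamini-Hochberg over all genes). Each class or subtype was tested against the mean of the others with library as a block, and age within a class or subtype, leaving 1 residual degree of freedom. The study's Wilcoxon test on nuclei was not used. Alternatives were DESeq2 1.42.0, RLE scaling, no filter, more than 2000 genes, thinning to 1000 UMIs, marker gating, free RNA subtraction, leaving out clusters of low *Malat1*, no block, and leaving out libraries. Positions come from GENCODE M21 (99.8% of gene IDs matched). The tests were checked on simulated counts.

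All 8 receptors, the genes named with the largest class or subtype difference of a list, the list genes passing by age in SGC-, NMSC-, MSC- or neuron-like sums, and the 2 most similar genes are named, except for 1 item that is not reported here. Receptors and lists were chosen with earlier results of these data known. Intervals and floors cover counting error or the model's error only. A library was taken as 1 replicate, and where libraries share animals or batches p-values measure the spread between these libraries only. In bulk sums of a class, fewer nuclei with a transcript and fewer transcripts per nucleus cannot be told apart.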

Additional observations from a re-analysis of the deposited data

Results flagged for a closer look

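*Grb2*, an adaptor that links Trk receptors and RET to Ras, differed in its age effect between classes. In myeloid-like nuclei it was at 281, 555 and 623 CPM (38, 501 and 395 UMIs), a log2 fold change of 1.09 ± 0.23 (edgeR's quasi-likelihood test, adjusted p = 0.015, higher in 2 of 2 aged libraries). The interaction put this age effect 1.29 ± 0.29 (log2) above the mean age effect of the other classes (adjusted p = 0.021). The adult myeloid-like class held 56 nuclei, against 189 and 139 in the aged libraries. Marker sums in the class moved with it: the 7 myeloid markers summed to 3270, 1253 and 1169 CPM, the 10 lymphocyte markers to 459, 122 and 117 (7, 4 and 4 of them at 0), the 10 neuron markers to 1228, 842 and 571 and the 6 SGC markers to 503, 194 and 167. With free RNA subtracted the age call was not kept (1.19, adjusted p = 0.054). The part of these values in the difference was not tested.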

How the results depend on the processing

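Calls of the receptors by class numbered 43 and lay between 29 and 45 under the alternatives (31 to 41 with a library left out), and by subtype 67, with 43 under marker gating, where fewer tests were made, and 57 to 71 with a library left out. Without the replicate block for library they numbered 37 and 60. No paired analysis was possible because, for age, the adult and aged groups share only replicate number 1. Age calls within a class numbered 11, against 3 after thinning (all among the 11), 5 with free RNA subtracted (4 of the 11) and 1 in DESeq2 (among the 11, with no adjusted p for 2 of them), and 5 of the 11 held under marker gating. The 4 calls kept with free RNA subtracted include *Ngfr* in NMSC-like nuclei, whose adult value the subtraction set to 0, so that call is no support. Age calls within a subtype numbered 8, against 2 after thinning and 4 in DESeq2 (all among the 8) and 1 under marker gating (*Gfra1* in PEP C-like nuclei, none of the 8). With an aged library left out, age rests on 1 library against 1 and has no test. No direction of the 19 calls turned, and the value moved by more than its SE for 5 of the 11 and 3 of the 8 without aged replicate 1, and for 3 and 3 without aged replicate 2. The interaction called 0 receptors, and 1 after thinning, 1 under marker gating, 1 with RLE scaling and 4 with no filter. The direction turned by subtype for *Gfra3* in the *Mrgpra3* cluster after thinning (−0.032), under marker gating for *Ngfr* (−0.72), *Gfra1* (1.73) and *Sort1* (−0.28) in NF Ad-LTMR-like and *Gfra3* (1.89) and *Ntrk3* (−0.0007) in PEP A-like nuclei, and without clusters of low *Malat1* for *Ngfr* (−0.49) and *Ntrk2* (−0.48) in NF-like nuclei. By age it turned for *Ntrk2* in NP1-like nuclei after thinning (0.22), *Gfra3* in PEP A-like nuclei under marker gating (1.37) and *Ngfr* in NF-like nuclei without clusters of low *Malat1* (−0.21). The cause was not tested. Over all genes, age calls within a class numbered 8957, against 1587 in DESeq2, 2552 after thinning and 2354 with free RNA subtracted, and within a subtype 8235, against 1742, 1617 and, under marker gating, 2851. Class calls over all genes numbered 46114, against 25245 after thinning, 29933 in nuclei of more than 2000 genes and 29344 without aged replicate 1. Subtype calls over all genes numbered 67468, against 18671 after thinning and 43675 under marker gating. Interaction calls over all genes numbered 476, against 177 in nuclei of more than 2000 genes, 792 under marker gating and 1533 with no filter. RLE scaling moved the share of age calls that were higher from 20.8% to 10.8% in lymphocyte-like nuclei, and of interaction calls from 68.8% to 58.8% in myeloid-like nuclei, where the median of all genes shifted by −0.11 (log2).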
